A study of Mus musculus with 6 samples.

Results

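The interleukin-1 (IL-1) family is a group of related cytokines, receptors and decoys. The 8 genes described here, taken by symbol from the 18268 genes in the table, were the agonists Il1a, Il1b and Il33, the receptor antagonist Il1rn, the signalling receptors Il1r1 and Il1rl1, the shared coreceptor Il1rap and the decoy receptor Il1r2. Their NCBI Gene IDs in the table are 16175, 16176, 77125, 16181, 16177, 17082, 16180 and 16178 in that order. They were compared between colitis mice receiving berberine (BBR), a plant alkaloid, and colitis mice receiving sulfasalazine (SASP), an aminosalicylate prodrug prescribed for ulcerative colitis. Of the 8 genes, 5 were tested and 1 passed, against 8.86% of all tested genes. The gene that passed, Il1rn, was 2.03 times as high with BBR as with SASP, with no overlap between the mice. Il1r1, Il1rap and Il33 also had all 3 BBR mice above all 3 SASP mice but did not pass. That order was found in 18.5% of all genes in the table. Il1a, Il1b, Il1r2 and Il1rl1 overlapped between the groups.

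Interleukin-1 alpha and interleukin-1 beta bind the same receptor, Il1r1, which then recruits Il1rap and signals through the adaptor Myd88 to NF-kB. The antagonist encoded by Il1rn occupies Il1r1 without recruiting the coreceptor, and Il1r2 binds the cytokines but lacks a signalling domain. Interleukin-33 is a nuclear cytokine of epithelial, endothelial and stromal cells that is released on damage and acts through Il1rl1, also called ST2, with the same coreceptor. In the injured gut interleukin-1 beta is known as a product of recruited myeloid cells and interleukin-33 as a signal to regulatory T cells, mast cells and type 2 innate lymphoid cells.

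All 6 mice were adult male C57BL/6 animals, and each had 7 days of dextran sulfate sodium (DSS), a polymer in the drinking water that injures the gut lining, and 6 days of daily drug by gavage at a dose the study had chosen separately for each drug. There were 3 BBR mice and 3 SASP mice. RNA came from whole colorectal tissue, so many cell types contributed to each value. Healthy mice and colitis mice without a drug were not analysed here, and every difference is one between the drugs.

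The values are FPKM, in which reads are scaled to transcript length and to the sample's total, so levels of different genes are compared per length. The estimated depth was 16400000 to 16800000 reads in BBR mice and 16800000 to 18200000 in SASP mice. Colonic epithelial markers led by Lgals4 and Krt8 were high in every mouse, with a summed level of 6762 to 8294 FPKM over 8 genes. BBR mouse 3 stood apart from BBR mice 1 and 2. Its 8 smooth muscle markers, led by Tagln and Acta2, summed to 6554 FPKM, against 2755 and 2834 FPKM in the other BBR mice and 697 to 2198 FPKM in SASP mice. Where leaving out this mouse changed a call named below, the value without it is given. Genes with at least 1 FPKM in at least 3 of the 6 mice were tested, 12072 in all, with limma on log2(FPKM + 1) and Benjamini-Hochberg adjustment over all of them. Adjusted p-values below are from that fit, and a gene was called at an adjusted p under 0.05.

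Il1rn had the highest level of the 8 genes. It stood at 40.83, 45.15 and 56.29 FPKM in BBR mice 1, 2 and 3 and at 22.27, 26.97 and 20.95 FPKM in SASP mice 1, 2 and 3. The lowest BBR mouse was above the highest SASP mouse. The means were 47.4 ± 7.98 FPKM (SD, n = 3) with BBR and 23.4 ± 3.16 FPKM (SD, n = 3) with SASP. The log2 fold change was 0.98 (SE 0.15, 95% interval 0.62 to 1.35, limma adjusted p = 0.0186). In all, 8.86% of the 12072 tested genes were called, 3.82% as higher with BBR and 5.04% as lower. The call was lost without BBR mouse 1 (log2 fold change 1.08, limma adjusted p = 0.0504), without SASP mouse 1 (0.95, adjusted p = 0.0848) and without SASP mouse 3 (0.91, adjusted p = 0.0862). It held without BBR mouse 3, at a log2 fold change of 0.86, and under median-ratio scaling, at 0.85. In bulk tissue, fewer cells of a type and less RNA per cell cannot be told apart.

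Il1rn has alternative first exons and encodes secreted and intracellular forms of the antagonist. The table gives 1 value per gene, so the forms cannot be told apart. RefSeq (assembly GRCm38.p6) lists 3 Il1rn starts, and the 250 bases before the upstream start and before the first of the downstream starts are printed because Il1rn is the member that was called. The window before the Il1b start is printed beside them as that of an agonist of the same receptor. Capitals mark matches to 5 short patterns searched on both strands and named after the factors usually tied to them. The NF-kB pattern was GGG and CC with any 5 bases between. The AP-1 pattern was TGANTCA, the C/EBP pattern was TTGCNNAA and the STAT pattern was TTCNNNGAA. The last pattern, that of the TATA box, was TATAAA.
Il1rn upstream start, chr2:24336610-24336859, plus strand: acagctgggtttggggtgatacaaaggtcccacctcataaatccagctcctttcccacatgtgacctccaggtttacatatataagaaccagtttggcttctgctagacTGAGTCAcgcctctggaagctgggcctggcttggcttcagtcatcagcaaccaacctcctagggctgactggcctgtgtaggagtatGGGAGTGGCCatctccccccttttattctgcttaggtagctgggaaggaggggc
Il1rn downstream start, chr2:24345041-24345290, plus strand: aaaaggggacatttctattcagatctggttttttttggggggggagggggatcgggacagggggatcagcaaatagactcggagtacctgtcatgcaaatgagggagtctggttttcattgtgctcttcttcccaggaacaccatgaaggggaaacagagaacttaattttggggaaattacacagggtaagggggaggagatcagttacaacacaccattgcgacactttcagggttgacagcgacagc
Il1b, chr2:129371140-129371389, minus strand: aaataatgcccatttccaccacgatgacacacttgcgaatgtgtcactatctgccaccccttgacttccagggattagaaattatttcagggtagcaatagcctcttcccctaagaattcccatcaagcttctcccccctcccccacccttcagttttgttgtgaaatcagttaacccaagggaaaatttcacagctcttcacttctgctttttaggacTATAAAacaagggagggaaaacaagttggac
The upstream Il1rn window held 1 NF-kB pattern, 54 bases before the start, and 1 AP-1 pattern, 141 bases before it. The printed downstream window held none of the 5 patterns. The window before the other downstream start, which overlaps it and is not printed, held 1 NF-kB pattern, 51 bases before that start. The Il1b window held a TATA pattern 31 bases before the start. Over the 13 windows of the 8 members, 4 held the NF-kB pattern, 2 the AP-1 pattern, 3 the C/EBP pattern, 1 the STAT pattern and 4 the TATA pattern. Of all 32851 windows of this length in the table, 45.8%, 6.75%, 9.56%, 7.02% and 12.4% did. These matches are descriptions of letters and not of binding.

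**Figure D1:**
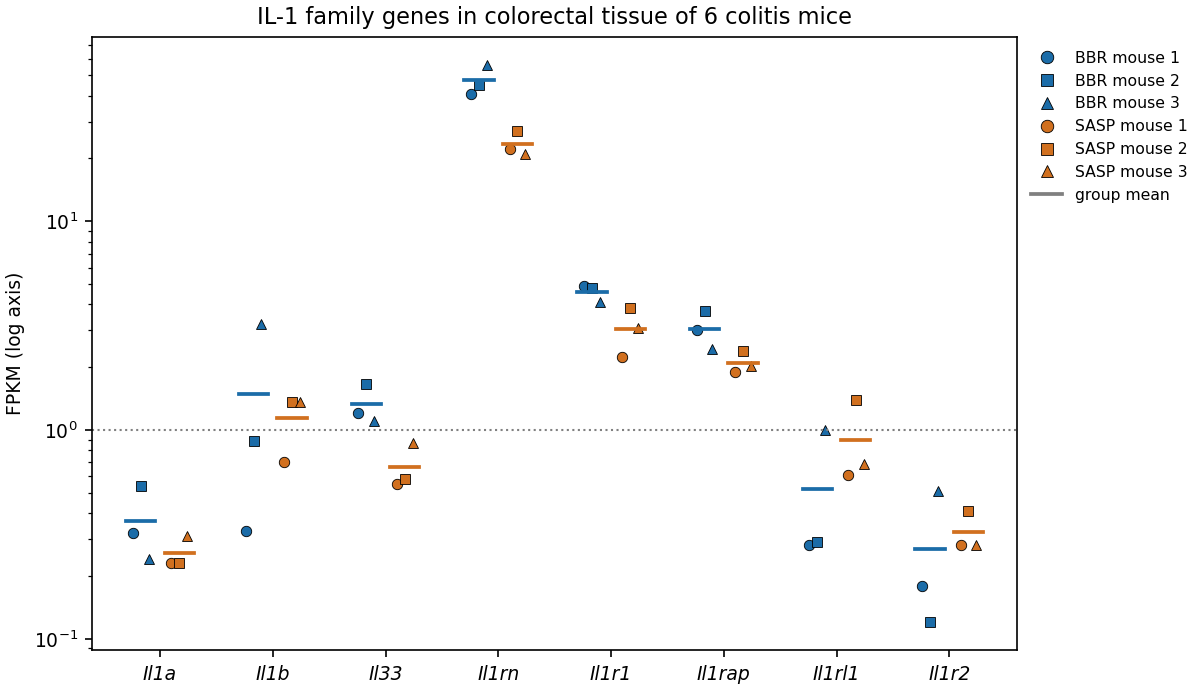
FPKM of the 8 IL-1 family genes on a log axis, with 1 point per mouse (blue BBR, orange SASP, symbol by mouse number), bars at the group means and a dotted line at 1 FPKM. Il1rn lies between 20.95 and 56.29 FPKM and no other member exceeds 4.92 FPKM. BBR mice all lie above SASP mice for Il1rn, Il1r1, Il1rap and Il33.

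The agonists were expressed at low levels. Il1b, the main secreted form in inflamed gut, stood at 0.33, 0.89 and 3.23 FPKM in BBR mice 1, 2 and 3 and at 0.70, 1.36 and 1.36 FPKM in SASP mice 1, 2 and 3. BBR mouse 3 was the highest of the 6 and BBR mouse 1 the lowest, so the BBR group spanned the whole SASP group. The log2 fold change was 0.06 (SE 0.41, 95% interval -0.91 to 1.03, limma adjusted p = 0.934). Without BBR mouse 3 it was -0.42 (limma adjusted p = 0.214), and pseudocounts of 0.1 and 0.01 also turned the sign. With array weights, which put little weight on BBR mouse 3, it was called lower with BBR, at -0.69 (limma adjusted p = 0.0123). That fit called 59.0% of all tested genes. The values correspond to an estimated 7 to 74 reads per mouse.

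Il1a, the form that is active as a precursor and released from damaged cells, was below 1 FPKM in every mouse and was not tested. It stood at 0.32, 0.54 and 0.24 FPKM with BBR and at 0.23, 0.23 and 0.31 FPKM with SASP, and the groups overlapped. These values correspond to an estimated 8 to 17 reads per mouse.

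Il33 stood at 1.21, 1.67 and 1.10 FPKM in the BBR mice and at 0.55, 0.58 and 0.87 FPKM in the SASP mice. Every BBR mouse was above every SASP mouse, and the ratio of means was 1.99. The log2 fold change was 0.48 (SE 0.16, 95% interval 0.10 to 0.86, limma adjusted p = 0.0955), short of the threshold. Only the BBR mice reached 1 FPKM, so the gene entered the test through the group in which it was high. The value rests on an estimated 25 to 70 reads per mouse.

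Il1r1, the signalling receptor for both interleukin-1 cytokines, stood at 4.92, 4.79 and 4.09 FPKM with BBR and at 2.25, 3.83 and 3.09 FPKM with SASP. The groups did not overlap, but BBR mouse 3 and SASP mouse 2 were close. The log2 fold change was 0.48 (SE 0.18, 95% interval 0.06 to 0.90, limma adjusted p = 0.117). The coreceptor Il1rap stood at 3.01, 3.73 and 2.44 FPKM with BBR and at 1.89, 2.38 and 2.02 FPKM with SASP. Here BBR mouse 3 was just above SASP mouse 2, and the log2 fold change was 0.38 (SE 0.16, limma adjusted p = 0.157). Without BBR mouse 3, Il1rap passed the threshold at 0.50 (limma adjusted p = 0.0428), in a fit in which 33.6% of all tested genes were called.

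The decoy receptor Il1r2 stood at 0.18, 0.12 and 0.51 FPKM with BBR and at 0.28, 0.41 and 0.28 FPKM with SASP. It rested on an estimated 3 to 12 reads per mouse, and BBR mouse 3 was the highest of the 6. Il1rl1 (ST2) stood at 0.28, 0.29 and 1.00 FPKM with BBR and at 0.61, 1.40 and 0.69 FPKM with SASP. BBR mice 1 and 2 were below all SASP mice, and BBR mouse 3 lay within them. Il1rl1 rested on an estimated 25 to 135 reads per mouse. Its soluble decoy form and its membrane form share 1 row of the table. Neither receptor passed the filter, and when all genes were fitted without it the log2 fold changes were 0.12 for Il1a, -0.07 for Il1r2 and -0.33 for Il1rl1, with limma adjusted p-values of 0.427, 0.723 and 0.400.

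Over all 8 members, 4 had every BBR mouse above every SASP mouse and 0 had the reverse. Among all 18268 genes in the table, 18.5% had the first order and 12.2% the second. Among tested genes these shares were 21.3% and 16.6%, which makes 37.9% in either order, against 30.7% of all genes listed. An unadjusted p under 0.05 was found for Il1rn, Il1r1 and Il33, and for 31.8% of all tested genes. Of these members, Il33 had entered the test only through the BBR mice, in which it was high.

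**Figure D2:**
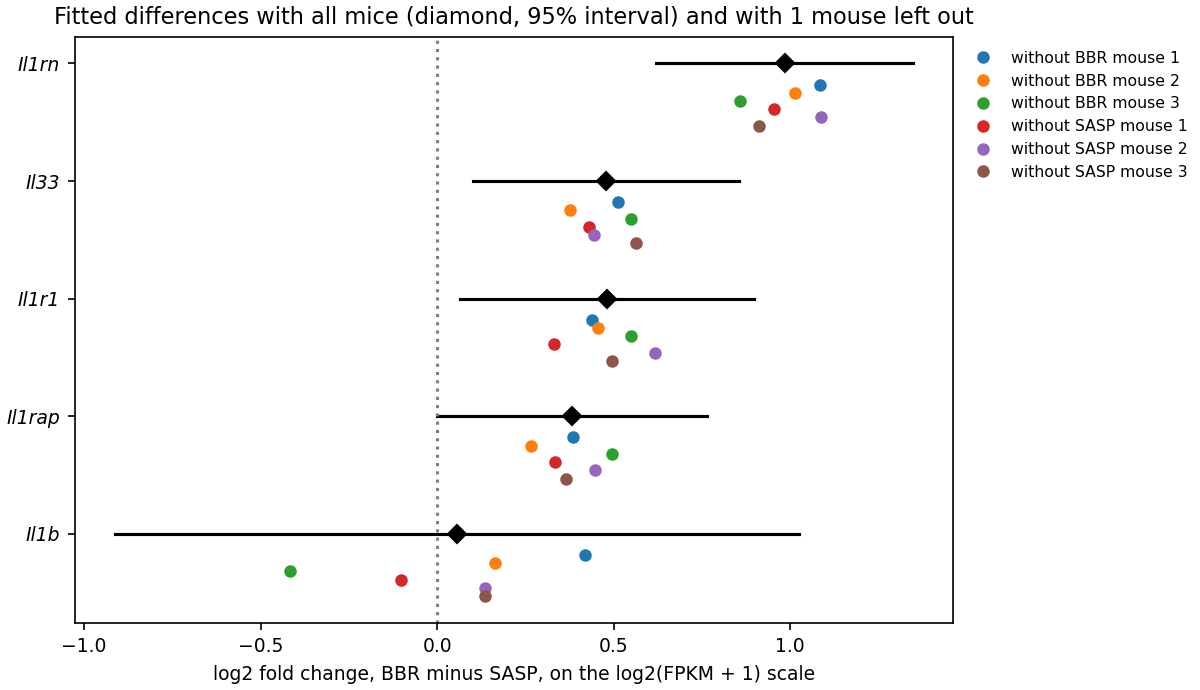
Log2 fold changes, BBR minus SASP, on the log2(FPKM + 1) scale for the 5 tested members. Diamonds with bars are the fit to all 6 mice with its 95% interval, and coloured points are the fits with 1 mouse left out. The points of Il1rn run from 0.86 to 1.09, whereas those of Il1b run from -0.42 to 0.42 and cross 0.

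The members differed in level far more than the groups did. By the mean over all mice the order was Il1rn (35.4 FPKM), Il1r1 (3.83), Il1rap (2.58), Il1b (1.31), Il33 (0.997), Il1rl1 (0.712), Il1a (0.312) and Il1r2 (0.297). Il1rn exceeded Il1r1, and Il1r1 exceeded Il1rap, in 6 of 6 mice. Il1rap exceeded Il1b in 5 of 6. The neighbours from Il1b to Il1a kept their order in 4 of 6 mice each, and Il1a exceeded Il1r2 in 3 of 6, so these lower neighbours did not differ beyond their spread.

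The balance of antagonist to agonist varied between mice of the same group. Il1rn made up 79.9, 79.0 and 81.7% of the summed FPKM of the 8 members with BBR and 77.4, 72.6 and 70.9% with SASP. The ratio of Il1rn to the sum of Il1a and Il1b was 62.82, 31.57 and 16.22 with BBR and 23.95, 16.96 and 12.54 with SASP. The share of Il1rn did not overlap between the groups, but the ratio did, since BBR mouse 3 had both the highest Il1rn and the highest Il1b. The ratio of Il1r1 to its decoy Il1r2 was 27.3, 39.9 and 8.02 with BBR and 8.04, 9.34 and 11.0 with SASP, and it too overlapped through BBR mouse 3. The ratio of Il33 to Il1rl1 was 4.32, 5.76 and 1.10 with BBR and 0.902, 0.414 and 1.26 with SASP. Ratios with Il1a, Il1b, Il1r2 or Il1rl1 in the denominator rest on few reads.

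The tested genes most like each tested member were found by the root mean square (RMS) difference of centred log2(FPKM + 1) values over the 6 mice. For Il1rn they were Tes (0.108), Olfr78 (0.118) and Dusp3 (0.119), which shared both the gap between groups and the high value in BBR mouse 3. For Il1b they were Ttyh1 (0.146), Syt5 (0.149) and Sphk1 (0.157). All of these were highest in BBR mouse 3. For Il1r1 they were Zfp612, Ppdpf and Hs2st1 (0.0456 to 0.0541), for Il33 Socs5, Zmynd11 and Chrnb1 (0.0504 to 0.0536) and for Il1rap Cic, Tmem203 and Fbxo24 (0.0234 to 0.0293). The SD of the members themselves was 0.52 for Il1rn and Il1b and 0.24 to 0.30 for the others, and genes with a small SD have close neighbours more easily.

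Elsewhere in the family, the antagonist of another branch differed in the opposite direction. Il18bp, the secreted protein that binds and neutralises interleukin-18, was 12.8-fold lower with BBR. It stood at 5.51, 3.24 and 10.91 FPKM in BBR mice 1, 2 and 3 and at 125.53, 34.26 and 92.77 FPKM in SASP mice 1, 2 and 3. The lowest SASP mouse was above every BBR mouse, although the SASP mice ranged widely (84.2 ± 46.2 FPKM, SD, n = 3). The log2 fold change was -3.44 (SE 0.54, limma adjusted p = 0.0186). Leaving out BBR mouse 1, SASP mouse 1 or SASP mouse 3 ended this call, with adjusted p-values of 0.0671, 0.0748 and 0.0812.

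Il18, the epithelial cytokine that Il18bp binds, was the most abundant family gene, at 226.17, 173.71 and 286.03 FPKM with BBR and 131.54, 230.50 and 131.74 FPKM with SASP. The groups overlapped through SASP mouse 2, and the limma adjusted p was 0.249. The ratio of Il18 to Il18bp was 41.0, 53.6 and 26.2 with BBR and 1.05, 6.73 and 1.42 with SASP. Il1rl2, the receptor for interleukin-36, stood at 2.23, 2.42 and 1.32 FPKM with BBR and at 0.69, 1.27 and 0.85 FPKM with SASP, which did not overlap, with a log2 fold change of 0.62 (limma adjusted p = 0.0926). Without BBR mouse 3 it was called, at 0.79 (limma adjusted p = 0.0199), in the fit that called 33.6% of all tested genes. Of the 13 other family genes, 9 were in the table and 5 were tested. Il18bp was the only 1 of those 5 called in the fit to all mice, which called 8.86% of all tested genes. The median log2 fold change was 0.06, against 0.10 over all tested genes.

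**Figure D3:**
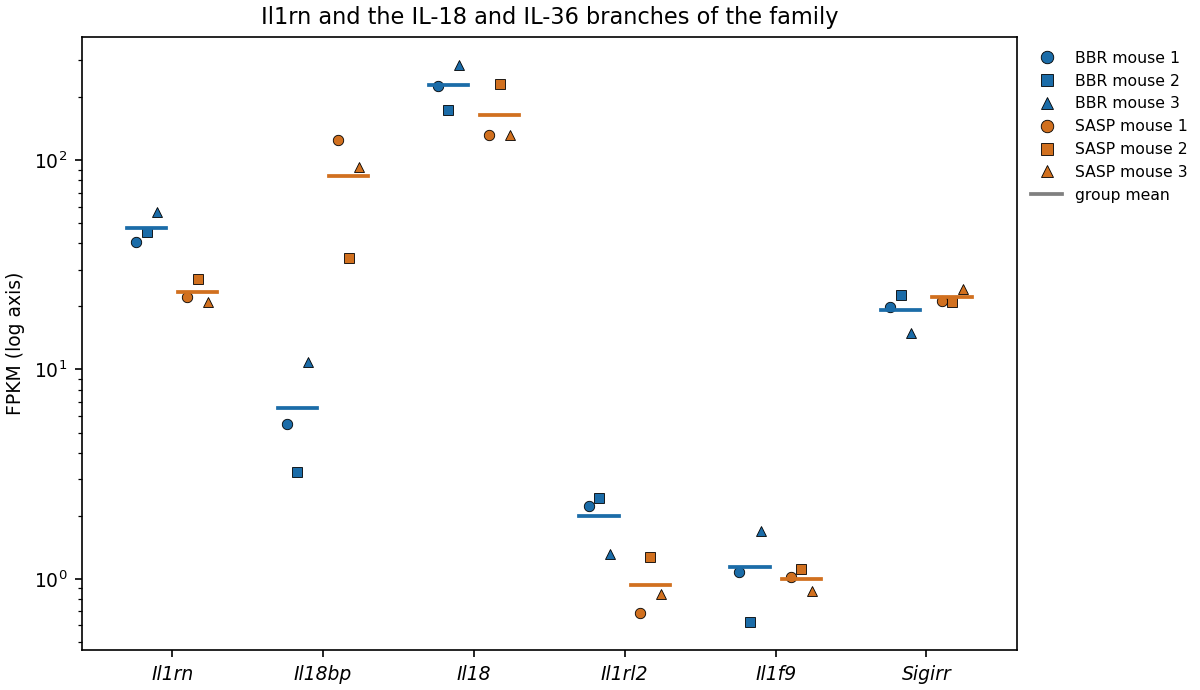
FPKM of Il1rn and 5 genes of the other IL-1 family branches on a log axis, with 1 point per mouse and bars at the group means. Il1f9 encodes the cytokine interleukin-36 gamma and Sigirr an inhibitory receptor. Il18bp lies at 3.24 to 10.91 FPKM with BBR and at 34.26 to 125.53 FPKM with SASP, and Il1rn lies the other way round.

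Below the receptors, 1 of 18 signalling genes was called, and all 18 were tested, against 8.86% called among all tested genes. Myd88, the adaptor that links these receptors and Toll-like receptors to their kinases, stood at 21.03, 20.03 and 24.96 FPKM with BBR and at 35.86, 30.39 and 39.11 FPKM with SASP. No BBR mouse reached the lowest SASP mouse, and the log2 fold change was -0.65 (SE 0.13, limma adjusted p = 0.0362). Each of 4 left-out mice ended the call (BBR mice 1 and 2, SASP mice 1 and 3), with adjusted p-values of 0.0947 to 0.140. With no filter on low values it also ended, at an adjusted p of 0.0534. Without BBR mouse 3, 4 of the 18 were called, 3 higher and 1 lower with BBR, while 33.6% of all tested genes were called. The median of the 18 log2 fold changes was 0.02.

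Among 16 genes for processing and release of the cytokines, 12 were tested, and 4 were called lower with BBR and 1 higher. Of all tested genes, 5.04% were called lower and 3.82% higher. The median log2 fold change of the 12 was -0.59. Casp1, the caspase that matures interleukin-1 beta and interleukin-18, stood at 103.92 to 116.54 FPKM with BBR and at 143.95 to 179.71 FPKM with SASP (log2 fold change -0.56, limma adjusted p = 0.0365). Gsdmd, whose cleaved form makes the membrane pores through which they leave the cell, stood at 125.66 to 177.41 FPKM with BBR and at 225.13 to 270.94 FPKM with SASP (-0.69, limma adjusted p = 0.0412). Both were higher in every SASP mouse than in any BBR mouse.

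Capn2, a subunit of a calpain, the class of protease that cleaves the interleukin-1 alpha precursor, was the call in the other direction, at 50.07 to 60.30 FPKM with BBR and 33.39 to 41.65 FPKM with SASP (0.57, limma adjusted p = 0.0385). Nlrp3, the inflammasome sensor, did not exceed 0.21 FPKM in any mouse. The calls of Casp1 and Capn2 each ended when BBR mouse 1, BBR mouse 2, SASP mouse 1 or SASP mouse 3 was left out, and that of Gsdmd when any 1 of these or SASP mouse 2 was, with adjusted p-values of 0.0773 to 0.149. With no filter, those of Casp1, Capn2 and Gsdmd ended at 0.0521, 0.0546 and 0.0647, and that of Gsdmd also ended under quantile normalization, at 0.0507. Without BBR mouse 3, 8 genes of this list were called, 7 lower and 1 higher with BBR, while 33.6% of all tested genes were called.

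Genes known to be induced by interleukin-1, which other cytokines and bacterial products also induce, showed how far BBR mouse 3 differed from its group. Of 26 such genes, 15 were tested and 1 was called, against 8.86% of all tested genes. The median log2 fold change was -0.63, with 14 of 15 values below 0. The call was Icam1, the adhesion molecule that leukocytes bind on endothelium, at 1.8, 2.25 and 2.21 FPKM with BBR and 9.24, 7.23 and 8.34 FPKM with SASP. The ratio of the SASP mean to the BBR mean was 3.96 (fitted log2 difference -1.58, SE 0.14, limma adjusted p = 0.00341), and Icam1 stayed called when any 1 mouse was left out.

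Other genes of this list split the BBR group. Cxcl1, a neutrophil chemokine, stood at 2.11, 0.64 and 25.85 FPKM in BBR mice 1, 2 and 3 and at 3.88 to 6.31 FPKM in SASP mice. Cxcl5, a chemokine of the same group, stood at 0.63, 0.46 and 53.74 FPKM against 5.86 to 12.19 FPKM. Socs3, a feedback inhibitor of cytokine signalling, stood at 3.52, 3.38 and 79.08 FPKM against 20.81 to 38.97 FPKM. For all of these, BBR mice 1 and 2 were below every SASP mouse and BBR mouse 3 above every SASP mouse, and they are named here because of that split, seen in the values. Without BBR mouse 3, limma called 12 of the 15 genes, all lower with BBR, in the fit that called 33.6% of all tested genes. The number of calls in this list therefore rests on whether that mouse is included. With all mice, 5 of the 26 genes had every BBR mouse below every SASP mouse and 1 had the reverse. Among all genes in the table these shares were 12.2% and 18.5%.

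**Figure D4:**
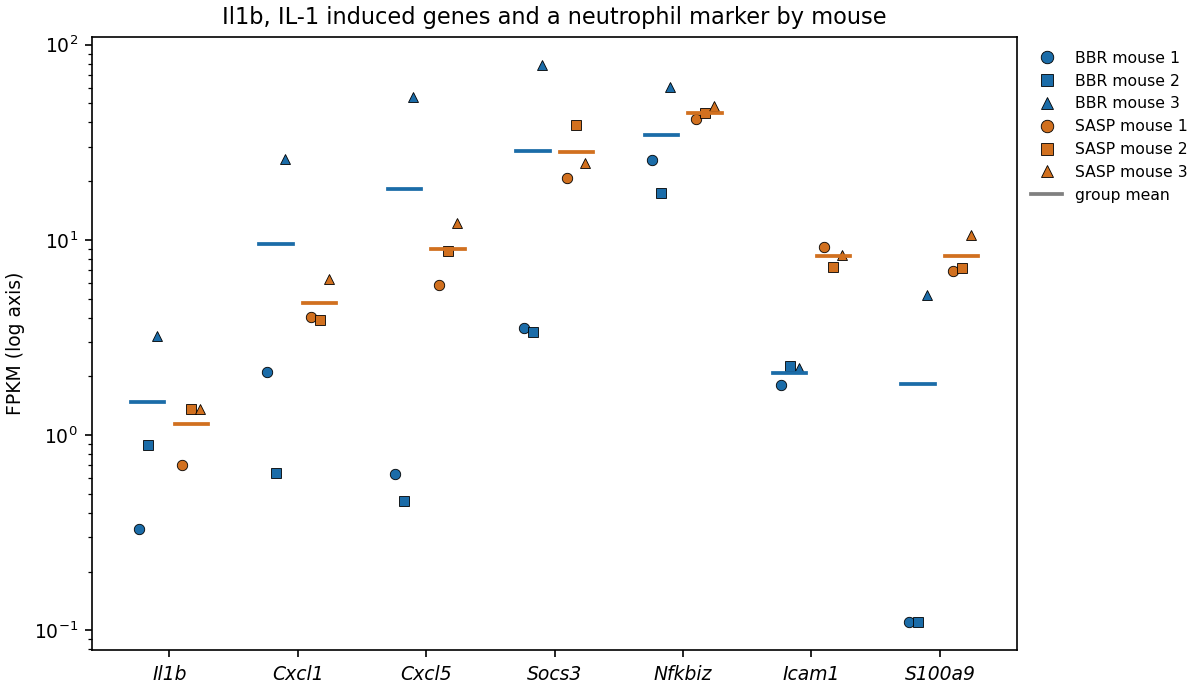
FPKM of Il1b, 5 genes induced by interleukin-1 and the neutrophil marker S100a9 on a log axis, with 1 point per mouse and bars at the group means. BBR mouse 3 (blue triangle) lies above the other BBR mice for Il1b, Cxcl1, Cxcl5, Socs3, Nfkbiz and S100a9. For Icam1 the 3 BBR mice lie together, at 1.8 to 2.25 FPKM.

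The genes of ST2-bearing cells and of type 2 responses were mostly at the limit of detection. Of 22 genes, 21 were in the table, 8 were tested and 0 were called by limma, with 1 at an unadjusted p under 0.05. Of all tested genes, 8.86% were called and 31.8% had an unadjusted p under 0.05 in that fit. The smallest p-values were those of Kit, the stem cell factor receptor of mast cells and also of the pacemaker cells of gut muscle, and of Hpgds, a prostaglandin D synthase. Kit stood at 8.42, 12.26 and 7.08 FPKM with BBR and at 4.88, 5.11 and 4.88 FPKM with SASP (log2 fold change 0.75, limma adjusted p = 0.0562). Kit passed under quantile normalization and under median-ratio scaling, at adjusted p-values of 0.0334 and 0.0336, without BBR mouse 3, at 0.0103, and with array weights, at 0.000703. Hpgds stood at 7.25, 6.91 and 5.25 FPKM with BBR and at 4.96, 3.67 and 5.42 FPKM with SASP (0.40, limma adjusted p = 0.173), and it passed without BBR mouse 3, at 0.0481, and with array weights, at 0.0102. These were the 2 genes of the list called without BBR mouse 3, both higher with BBR. Of all tested genes, 14.4% were called under quantile normalization, 13.9% under median-ratio scaling, 33.6% without BBR mouse 3 and 59.0% with array weights. Foxp3, which defines regulatory T cells, did not exceed 0.06 FPKM and Gata3, a regulator of type 2 lymphocytes, did not exceed 0.17 FPKM. Median log2 fold change over the 8 tested genes was 0.21.

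Markers of several cell types moved with the groups. All 10 fibroblast markers, led by Dcn and Vim, had a log2 fold change above 0 and 3 were called, with a summed level of 238 to 339 FPKM with BBR and 120 to 195 FPKM with SASP. The 7 endothelial markers, led by Lyve1 and Pecam1, summed to 27.7 to 45.2 FPKM with BBR and 14.5 to 21.6 FPKM with SASP, with 1 of 6 tested called. Of all tested genes, 3.82% were called higher with BBR. Il1rn, Il1r1, Il1rap and Il33 were also higher in every BBR mouse than in any SASP mouse, which follows the same split by drug. Within the BBR group, the fibroblast and endothelial sums, Il1rap and Il33 were highest in mouse 2. Il1r1 was highest in mouse 1 and Il1rn in mouse 3. The smooth muscle sums given above did not overlap between the groups either. In limma 0 of those 8 markers were called and 6 had an unadjusted p under 0.05, against 31.8% of all tested genes.

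With the mean log2 level of the smooth muscle markers as a covariate, 18 genes were called and Il1rn was not among them, at a log2 fold change of 0.71 (limma adjusted p = 0.195). With that of the fibroblast markers, an alternative chosen after seeing the data, 0 genes were called by limma, 679 had an unadjusted p under 0.05, and Il1rn was at 0.76 (limma adjusted p = 0.845). The fibroblast score itself did not overlap between the groups, at 4.01 to 4.40 with BBR and 3.13 to 3.74 with SASP, so the score and the drug cannot be told apart in 6 mice. Every call named above, from Il1rn to Icam1, ended with either covariate, while the fitted differences kept their sign. With the smooth muscle and the fibroblast covariate, Icam1 stood at a log2 fold change of -1.49 and -1.48, Myd88 at -0.69 and -0.57, Gsdmd at -0.82 and -0.61 and Il18bp at -3.11 and -2.16.

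Leukocyte markers were mixed. The 14 macrophage and monocyte markers, led by Lyz2 and Cd14, summed to 144 to 198 FPKM with BBR and 263 to 290 FPKM with SASP. Lyz2 and Cd14 gave most of each sum, with Cd14 at 20.3 to 32.26 FPKM and 75.73 to 116.25 FPKM. Of the 14 markers, 5 had every BBR mouse below every SASP mouse, 1 had the reverse and the others overlapped. Among all genes in the table these shares were 12.2% and 18.5%. Of 13 tested, 3 were called lower and 4 had a log2 fold change above 0, against 5.04% of all tested genes called lower. For the called Fcgr1 only the SASP mice reached 1 FPKM, so it entered the test through the group in which it was high. The 6 pan-leukocyte markers, led by Cd52 and Lcp1, summed to 19.4 to 33.5 FPKM with BBR and 32.5 to 70.5 FPKM with SASP, which overlapped. In limma 0 of them were called and 4 had an unadjusted p under 0.05, against 31.8% of all tested genes. Of 13 neutrophil markers, Ly6g gave most of the sum, at 190 to 552 FPKM with BBR and 329 to 505 FPKM with SASP. The other 12, led by S100a8, summed to 2.46, 2.33 and 16.3 FPKM in BBR mice 1, 2 and 3 and to 29.0 to 38.0 FPKM in SASP mice. That gap came mainly from S100a8 and S100a9. Of the 13 neutrophil markers, these were the only 2 with every BBR mouse below every SASP mouse, an order found in 12.2% of all genes in the table. The others overlapped between the groups. S100a9 stood at 0.11, 0.11 and 5.25 FPKM with BBR and at 6.91 to 10.66 FPKM with SASP. S100a8, the only neutrophil marker called, was listed at 0 in BBR mice 1 and 2 and stood at 6.19 FPKM in BBR mouse 3 and at 18.53 to 23.14 FPKM in SASP mice. Among BBR mice Il1b was thus highest in the mouse with the most S100a8, whereas the SASP mice had more S100a8 and less Il1b than that mouse.

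The 7 T cell markers in the table, led by Lck and Cd3g, summed to 4.55 to 6.63 FPKM with BBR and 3.44 to 7.86 FPKM with SASP, and 0 of 2 tested were called or had an unadjusted p under 0.05 in limma. The 7 B cell and plasma cell markers, led by Jchain and Sdc1, summed to 78.2 to 192 FPKM and 61.2 to 103 FPKM, with Sdc1 called higher and Cd79b lower with BBR. Of all tested genes, 3.82% were called higher and 5.04% lower. Cd79b stood at 0.33, 0.56 and 0.18 FPKM with BBR and at 6.66, 1.42 and 2.95 FPKM with SASP. Only the SASP mice reached 1 FPKM, so Cd79b entered the test through the group in which it was high. Of the 9 squamous epithelial markers in the table, a tissue that lines the anal canal, Sprr1a gave most of the sum in every mouse, at 1.29, 2.77 and 29.58 FPKM with BBR and 6.89 to 9.72 FPKM with SASP. The other 8, led by Krt14, summed to 0.40 to 2.45 FPKM in any mouse. Of the 8 colonic epithelial markers, 1 was called in each direction. The part of these cell types in the levels of the 8 members was not tested beyond the covariate fits given above.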

How the data were processed

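RNA sequencing data of colorectal tissue from 6 mice were used, 3 per drug, grouped by the treatment label. The authors deposited FPKM values per gene and mouse, calculated with RSEM 1.2.12 from filtered reads aligned with Bowtie2 2.2.5, according to the submitters' processing notes, which also name build mm9. Methods and labels differ on the library kit. RSEM divides reads shared by similar genes, which leaves close paralogs such as Ly6g uncertain. Count tests do not apply to FPKM and were left out.

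Values were transformed as log2(FPKM + 1), and genes with at least 1 FPKM in at least 3 mice were compared with limma 3.58.1 (R 4.3.3, two-sided, variance trend, Benjamini-Hochberg, threshold 0.05). Fold changes on this scale understate those of low genes. An exact permutation test of 3 against 3 cannot go below p = 0.10. The labels do not say whether the mice shared cages or sessions, and p-values measure only the spread between these samples. At most 0.389% of values were identical between any 2 samples.

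The members, the 5 further pathway lists and the 10 marker lists were chosen with earlier results of these data known. Named were all members, every called gene of a pathway list (up to 5, otherwise the smallest p-values; with none called, 2), 3 most alike genes per tested member and 2 leading genes per marker list. Some of the called genes of the processing and release list are counted but not reported here. Estimated depth rests on 31 to 56 genes per mouse that were above 0 in that mouse only and had transcripts under 1500 bases, with the typical value taken as 1 read. Tested alternatives covered filters, pseudocounts, normalizations, variance models, covariates and left-out mice. Promoter windows were matched by symbol to RefSeq for 8 of 8 members.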

Additional observations from a re-analysis of the deposited data

How the results depend on the processing

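The number of genes called was 1069 with all mice (461 higher and 608 lower with BBR), 608 with no filter, 1737 with quantile normalization, 1683 with median-ratio scaling (499 higher and 1184 lower), 7126 with array weights (4636 higher and 2490 lower), 18 with the smooth muscle covariate and 0 with the fibroblast covariate chosen after seeing the data. Median-ratio scaling moved the median log2 fold change of all genes by -0.12 and the share of calls that were higher from 43.1% to 29.6%, and array weights moved it to 65.1%. With 1 mouse left out, 96 (without SASP mouse 3) to 4051 (without BBR mouse 3) genes were called. Of the 8 members, 5 were tested in these fits. Of these, 1 was called with all mice, 0 with either covariate and 0 to 2 with 1 mouse left out. With array weights 5 were called, in a fit that called 59.0% of all tested genes. Il1rn stayed above 0 in all 16 alternatives, at 0.71 to 1.01 over 10 of them and 0.86 to 1.09 with 1 mouse left out, and it lost its call in 5, with adjusted p-values up to 0.845 (limma). Il1r1, Il1rap and Il33 also stayed above 0 in every alternative run. Il1b reversed to -0.69 with array weights, where it was called (limma adjusted p = 0.0123), to -0.0889 and -0.14 with pseudocounts of 0.1 and 0.01, to -0.0175 with quantile normalization, to -0.89 and -0.78 with the smooth muscle and fibroblast covariates, and to -0.42 and -0.10 without BBR mouse 3 and SASP mouse 1, and with 1 mouse left out it ran from -0.42 to 0.42. The causes were not tested. Array weights gave 5.32 to BBR mouse 1, 4.85 to SASP mouse 3 and 0.13 to BBR mouse 3, so that fit rests mainly on 2 mice. Over 251 fold changes of the tested members and of genes from the pathway lists, 180 kept direction and side of the threshold, 51 lost the call, 12 gained it and 8 reversed, all of them Il1b. No paired analysis was possible because the labels give the mice of the groups no shared replicate numbers. Il1a and Il1r2 lie at the limit of the depth, at an estimated 8 to 17 and 3 to 12 reads per mouse. Il1rl1, at 25 to 135 reads, was left untested by the filter on FPKM.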

Other observations

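Of the receptor genes of the family, 6 lie side by side in 1 cluster on chromosome 1, between Map4k4 and Slc9a4. Their RefSeq order is Il1r2, Il1r1, Il1rl2, Il1rl1, Il18r1 and Il18rap. The coreceptor gene Il1rap lies elsewhere, on chromosome 16. Il1r1 and Il1rl2 were higher in every BBR mouse than in any SASP mouse, and so was the flanking gene Map4k4, a kinase, at 5.92, 7.29 and 4.82 FPKM with BBR and 3.46, 4.20 and 4.51 FPKM with SASP (log2 fold change 0.46, limma adjusted p = 0.119). Il1r2, Il1rl1, Il18r1 and Il18rap overlapped between the groups. Il18r1, which binds interleukin-18, did not exceed 0.54 FPKM, and its coreceptor Il18rap did not exceed 0.26 FPKM. None of the 3 non-overlapping genes passed the threshold in the fit to all mice.

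Ptgs2, which encodes the inducible cyclooxygenase, was chosen after its values were seen, as the only 1 of the 26 genes induced by interleukin-1 with every BBR mouse above every SASP mouse. It stood at 0.66, 1.68 and 2.51 FPKM with BBR and at 0.42, 0.48 and 0.50 FPKM with SASP. Ptgs2 did not pass the filter on low values and was not tested. In 5 of the 26 genes every BBR mouse was below every SASP mouse. Among all genes in the table, 18.5% had the order of Ptgs2 and 12.2% the reverse.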
